A study of Mus musculus with 6 samples.

Results

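Non-homologous end joining is the pathway that rejoins broken DNA ends without a matching template. It was followed here through the transcripts of its 9 core genes in mouse thymus. The genes were taken by symbol from the mRNA table: Xrcc6, Xrcc5, Prkdc, Dclre1c, Poll, Polm, Lig4, Xrcc4 and Nhej1, which are 9 of the 21954 genes listed. Each was found under 1 gene identifier. The irradiated group held 3 C57BL wild-type mice aged 5 weeks whose thymus was taken 24 h after 6 Gy of X-rays, and the control group held 3 unexposed mice of the same strain and age. Whole thymus was used, so the RNA of thymocytes, epithelium, stroma and blood-derived cells was measured together. The labels name no sorting step and do not say whether whole body or part was exposed. The tables hold FPKM, fragments divided by transcript length and library depth. The labels count 3 mice in each group without saying which library came from which, so p-values cover the variation among these libraries, which may in part be technical.

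In this pathway a ring of the Ku70 and Ku80 proteins slides onto each broken end and recruits the kinase DNA-PKcs. The nuclease Artemis and the gap-filling polymerases lambda and mu then make the ends compatible, and ligase IV, held by the scaffold proteins XRCC4 and XLF, seals them. Developing thymocytes depend on the same proteins to join the breaks that the RAG recombinase makes in T cell receptor genes. Mice without Ku or DNA-PKcs activity cannot make a normal T cell repertoire.

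At 24 h, 5 of the 9 genes had fallen and 2 had risen in irradiated thymus (limma adjusted p under 0.05), while Polm and Nhej1 did not pass. Over all 14001 genes tested, 20.9% were called lower and 42.4% higher, 63.2% in either direction. That balance moved with the scaling: 2920 lower and 5933 higher with FPKM as deposited, but 4558 lower and 4655 higher with median-ratio scaling, where 6 of the 9 genes were lower and 2 higher. The falls of Lig4 and Xrcc6 stood at the low end of the table: only 135 and 232 of the tested genes had a more negative log2 fold change. The rises were less extreme: 64.3% of tested genes had a smaller log2 fold change than Xrcc5, and 72.2% a smaller one than Poll. The subunits of Ku moved in opposite directions. The ratio of Lig4 to its scaffold partner Xrcc4 was lower in every irradiated library than in any control.

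**Figure D1:**
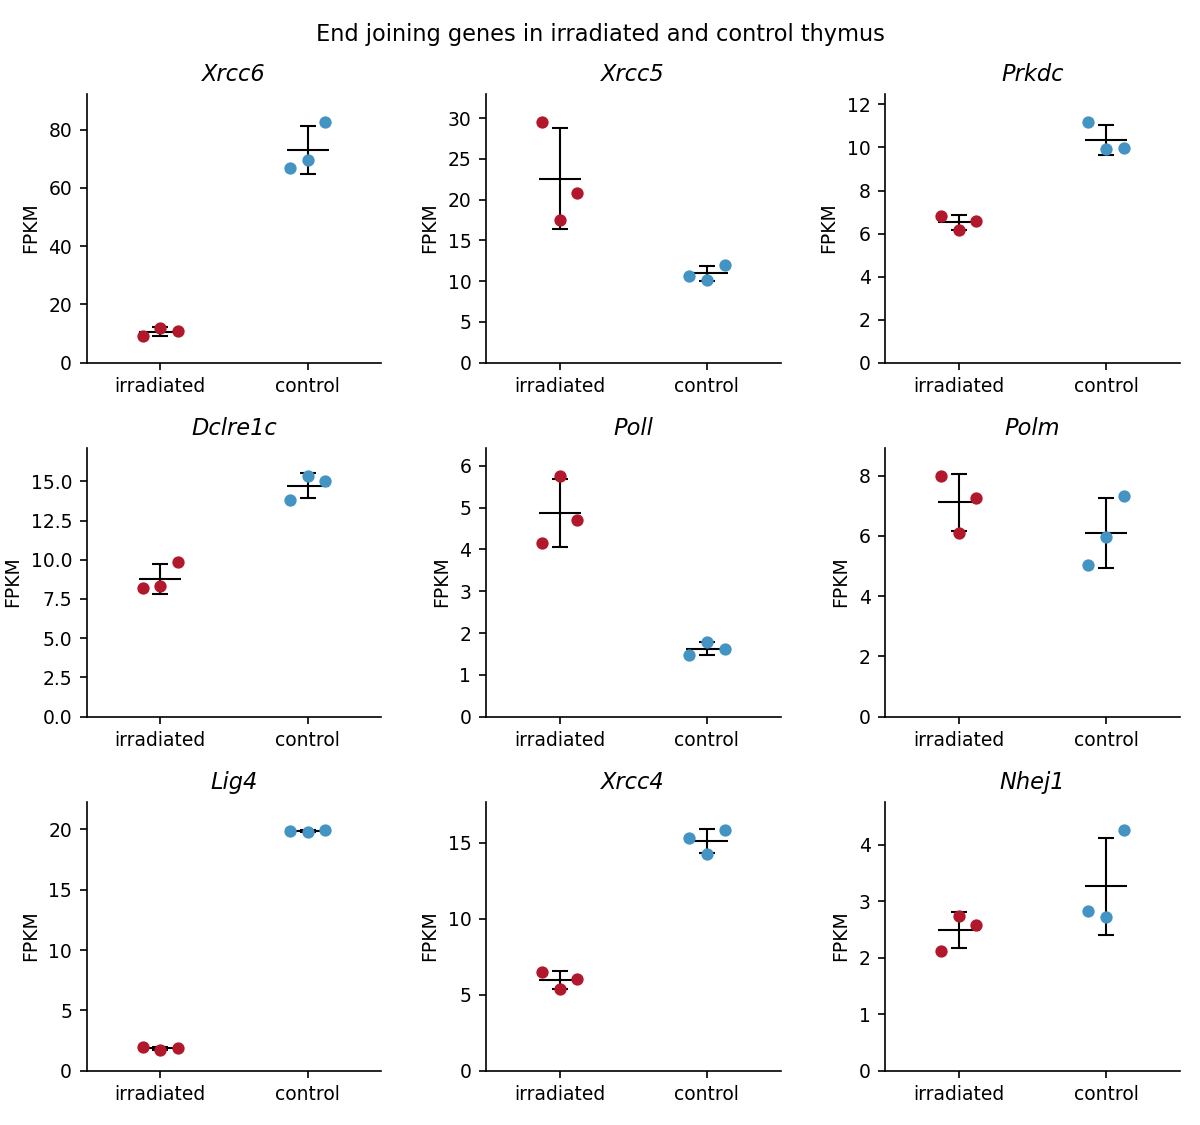
FPKM of the 9 end joining genes in each library, with irradiated libraries on the left and controls on the right of each panel. Points are libraries, the long dash is the mean and the whiskers are 1 SD (n = 3). Irradiated points lie below all controls for Xrcc6, Prkdc, Dclre1c, Lig4 and Xrcc4, above all controls for Xrcc5 and Poll, and overlap them for Polm and Nhej1.

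The thymus label was checked against marker genes, and the levels of cell type markers moved with the groups. Over 12 markers of cortical CD4+ CD8+ thymocytes, which rearrange the T cell receptor alpha gene, summed expression was 86.1 to 140.6 FPKM in irradiated and 2176 to 2497 FPKM in control libraries, and 11 of the 12 fell. All 9 listed genes of T cells at any stage that were tested fell, with sums of 237.9 to 358.3 FPKM in irradiated and 1381 to 1597 FPKM in control libraries. All 10 proliferation genes fell. All 8 macrophage genes and all 8 fibroblast genes rose, as did 7 of 8 thymic epithelial and 7 of 8 endothelial genes. Over all tested genes 20.9% were lower and 42.4% higher. In each of the last lists 6 rose after quantile normalization and without control replicate 1 or 2. For thymic epithelial genes the count was also 6 with median-ratio scaling and without irradiated replicate 2. For endothelial genes it was also 6 without irradiated replicate 3. Of 5 B cell genes 1 fell, Cd79b, whose call was lost in 5 of 15 alternatives: with the replicate block and without irradiated replicate 3 or any 1 control. Without irradiated replicate 1, 2 of these genes were lower and 1 higher, and after quantile normalization 4 were lower. Listed genes of muscle, airway, fat cells and parathyroid were uneven among the irradiated libraries, and where they were transcribed was not tested. Skeletal muscle genes summed to 4.30, 136.6 and 27.9 FPKM in irradiated replicates 1, 2 and 3 and to 5.95 to 6.46 FPKM in controls. Airway genes summed to 118.6, 3583 and 102.4 FPKM in those irradiated replicates and to 11.9 to 15.3 FPKM in controls. Fat cell genes summed to 80.7, 1546 and 650.5 FPKM in irradiated and to 18.3 to 40.1 FPKM in control libraries, and parathyroid genes to 31.7, 47.9 and 9.58 FPKM in irradiated and to 0.749 to 7.36 FPKM in control libraries. Irradiated replicate 2 was thus highest in all 4 of these lists. No listed marker was at 0 in every library. In bulk tissue, fewer cells of a type and less RNA per cell cannot be told apart, and the part of these shifts in the end joining results was not tested.

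Xrcc6 encodes Ku70, and it was the most abundant of the 9 transcripts in every control library. It measured 9.06, 12.0 and 10.8 FPKM in irradiated replicates 1, 2 and 3, against 67.0, 69.4 and 82.5 FPKM in controls 1, 2 and 3. No irradiated library came near a control. The mean was 10.6 ± 1.47 FPKM in irradiated and 73.0 ± 8.35 FPKM in control thymus (SD, n = 3 each), which is 6.87-fold lower in irradiated thymus. The log2 fold change was -2.77 ± 0.16 (SE; adjusted p = 5.42e-05 by limma). The gene (ENSMUSG00000022471) lies on the plus strand of chromosome 15, from 81987835 to 82040085 on GRCm38. Desi1, a protein-coding gene on the other strand, overlaps that span by 41340 bases and fell by 1.78 on the log2 scale (limma adjusted p = 3.25e-04). The overlap is counted from the outermost annotated start. It is shorter from the RefSeq start of Xrcc6, which lies further inside the span. The use of strand in counting is not given in the sources used here, so reads in that overlap cannot be assigned with certainty.

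Xrcc5 encodes Ku80, the obligate partner of Ku70, and it rose. It measured 29.5, 17.5 and 20.8 FPKM in the irradiated replicates, against 10.6, 10.2 and 12.0 FPKM in the controls. Every irradiated library was above every control, and irradiated replicate 1 stood highest. The means were 22.6 ± 6.20 FPKM in irradiated and 10.9 ± 0.973 FPKM in control thymus (SD, n = 3 each), 2.06-fold higher, with a log2 fold change of 1.01 ± 0.21 (SE; adjusted p = 0.00470 by limma). Without irradiated replicate 1 the log2 fold change was 0.80. The gene (ENSMUSG00000026187) has 1 transcript of 2549 bases in the table, on the plus strand of chromosome 1 from 72307427 to 72394952, and its values rest on an estimated 602 to 1846 fragments per library.

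The windows around the annotated starts of the Ku genes are printed because their transcripts moved apart, each with 250 bases before and 50 after the RefSeq start on GRCm38.p6, 5′ to 3′ on the gene's strand. Capitals mark matches on either strand to 9 motifs that were searched: the CCAAT box, the GC box GGGCGG, the ETS core CCGGAAG, the E2F sites TTTCCCGC and TTTGGCGC, the cyclic AMP element TGACGTCA, the TATA box TATAAA, the E-box CACCTG and the RUNX site TGTGGT.
Xrcc6, chr15:82016119-82016418, plus strand: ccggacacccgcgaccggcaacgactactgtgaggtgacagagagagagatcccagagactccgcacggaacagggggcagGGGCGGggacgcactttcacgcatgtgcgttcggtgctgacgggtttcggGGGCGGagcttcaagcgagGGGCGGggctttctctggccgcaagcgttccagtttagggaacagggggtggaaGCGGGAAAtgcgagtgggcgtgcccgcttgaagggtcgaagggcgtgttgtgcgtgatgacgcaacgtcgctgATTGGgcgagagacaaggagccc
Xrcc5, chr1:72307171-72307470, plus strand: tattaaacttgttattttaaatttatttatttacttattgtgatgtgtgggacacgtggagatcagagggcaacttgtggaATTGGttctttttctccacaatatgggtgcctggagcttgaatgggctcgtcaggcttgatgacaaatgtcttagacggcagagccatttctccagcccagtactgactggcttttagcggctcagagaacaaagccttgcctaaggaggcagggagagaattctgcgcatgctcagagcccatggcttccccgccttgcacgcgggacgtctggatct
The Xrcc6 window is 64.3% G and C and holds 3 matches to GGGCGG, 1 to CCAAT and 1 to TTTCCCGC, while the Xrcc5 window is 48.0% G and C and holds 1 match to CCAAT. The letters GGGCGG are found in 35.7% of all 32851 windows in the table, CCAAT in 37.4% and TTTCCCGC in 1.07%, and the median window is 52.7% G and C. None of the 8 windows found for the 9 genes holds TTTGGCGC (in 0.514% of all windows), TGACGTCA (1.79%), TATAAA (13.6%), CACCTG (20.2%) or TGTGGT (16.8%). A match is a run of letters and not a measured site. The RefSeq start of Xrcc6 lies inside the span that the mRNA table gives for the gene.

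Because both Ku transcripts are read in the same library, their ratio does not change when a whole library is scaled up or down. Xrcc6 over Xrcc5 was 0.307, 0.686 and 0.519 in the irradiated replicates, against 6.31, 6.82 and 6.85 in the controls. In each irradiated library Xrcc5 was the more abundant transcript and in each control Xrcc6 was. On the log2 scale of FPKM + 0.1 the difference was -3.78, or 13.7-fold, with an exact two-sided permutation p of 0.1, the smallest that 3 libraries against 3 can give.

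Prkdc encodes DNA-PKcs, the kinase that Ku brings to the break and whose defect causes the scid phenotype of mice without mature lymphocytes. It measured 6.82, 6.15 and 6.57 FPKM in irradiated and 11.2, 9.92 and 9.99 FPKM in control libraries. The groups did not overlap. The log2 fold change was -0.66 ± 0.14 (SE; adjusted p = 0.00469 by limma), or 1.59-fold lower in irradiated thymus. The gene (ENSMUSG00000022672) covers 15637889 to 15842235 on the plus strand of chromosome 16. Its transcript of 12647 bases gathered an estimated 1988 to 3153 fragments per library.

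Dclre1c encodes Artemis, the nuclease that opens the hairpin ends left by RAG. Its values were 8.18, 8.30 and 9.87 FPKM in irradiated and 13.8, 15.3 and 15.03 FPKM in control libraries. All irradiated libraries were lower than all controls, by 0.74 ± 0.14 on the log2 scale (SE; adjusted p = 0.00306 by limma). The gene (ENSMUSG00000026648) lies on the plus strand of chromosome 2, from 3424131 to 3464130. Suv39h2, a histone methyltransferase gene on the other strand, overlaps its last 8316 bases and fell by 1.66 on the log2 scale (limma adjusted p = 0.00176).

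Of the gap-filling polymerases 1 rose and 1 did not pass. Poll, which encodes polymerase lambda, measured 4.16, 5.75 and 4.70 FPKM in irradiated and 1.48, 1.78 and 1.62 FPKM in control libraries. It was the least abundant of the 9 in every control and rose 2.99-fold, with a log2 fold change of 1.52 ± 0.21 (SE; adjusted p = 8.21e-04 by limma). After quantile normalization it was 0.57 and did not pass (limma adjusted p = 0.0565). Polm, which encodes polymerase mu, the closest relative of the template-independent polymerase TdT, measured 7.98, 6.11 and 7.26 FPKM in irradiated and 5.02, 5.96 and 7.32 FPKM in control libraries. Those values overlapped, and the log2 fold change of 0.23 did not pass (95% interval -0.23 to 0.69, limma adjusted p = 0.334). Its sign turned with the scaling: quantile normalization gave -0.28 and median-ratio scaling -0.15. Poll (ENSMUSG00000025218, chromosome 19, 45552275 to 45560531) and Polm (ENSMUSG00000020474, chromosome 11, 5827860 to 5838016) are both on the minus strand. Polm over Poll was 1.92, 1.06 and 1.55 in the irradiated replicates and 3.39, 3.34 and 4.52 in the controls, lower in every irradiated library (exact permutation p = 0.1).

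Lig4, the ligase that closes the break, had the most negative fold change of the 9. It measured 1.99, 1.68 and 1.85 FPKM in the irradiated replicates, against 19.9, 19.8 and 19.9 FPKM in the controls. The controls differed from each other by 0.271% (coefficient of variation), the tightest of the 9 genes, and the groups lay far apart. The mean was 1.84 ± 0.152 FPKM in irradiated and 19.9 ± 0.0538 FPKM in control thymus (SD, n = 3 each), 10.8-fold lower in irradiated thymus, with a log2 fold change of -3.37 ± 0.14 (SE; adjusted p = 4.86e-05 by limma). It was the scarcest of the 9 transcripts in each irradiated library and ranked next to Xrcc6 in each control. The gene (ENSMUSG00000049717) is on the minus strand of chromosome 8, from 9969049 to 9977686.

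Xrcc4, the scaffold that holds the ligase, also fell. Its values were 6.52, 5.38 and 6.03 FPKM in irradiated and 15.3, 14.2 and 15.8 FPKM in control libraries, with no overlap. The log2 fold change was -1.33 ± 0.14 (SE; adjusted p = 2.76e-04 by limma), or 2.53-fold lower in irradiated thymus. The gene (ENSMUSG00000021615) is on the minus strand of chromosome 13, and its transcripts in the table span 89848921 to 90089608. Lig4 over Xrcc4 was 0.304, 0.313 and 0.306 in the irradiated replicates, against 1.30, 1.39 and 1.26 in the controls, a difference of -2.04 on the log2 scale (exact permutation p = 0.1). The 3 irradiated ratios lay close to each other, and far below the controls.

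**Figure D2:**
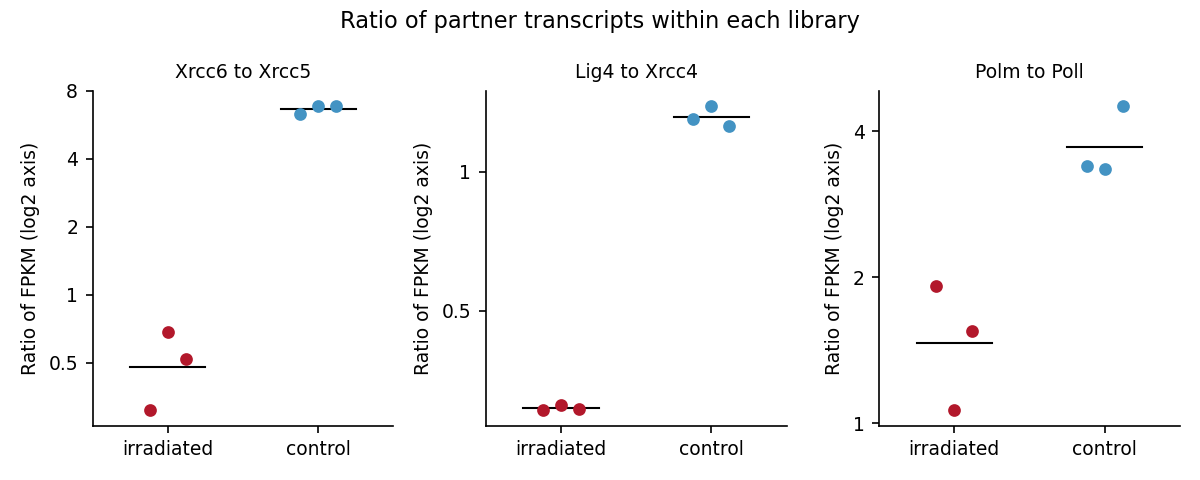
Ratio of FPKM between partner genes within each library, on log2 axes, with irradiated libraries on the left. Points are libraries and the line is their geometric mean (n = 3). The Xrcc6 to Xrcc5 ratio lies between 0.307 and 0.686 in irradiated and between 6.31 and 6.85 in control libraries, and the other ratios are also lower in all irradiated libraries.

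Nhej1 encodes XLF, which bridges XRCC4 filaments. It measured 2.13, 2.74 and 2.58 FPKM in irradiated and 2.82, 2.72 and 4.25 FPKM in control libraries. The groups overlapped, and control replicate 3 stood above the others. The log2 fold change of -0.36 did not pass (95% interval -0.93 to 0.21, limma adjusted p = 0.227), but it was -0.73 with median-ratio scaling (limma adjusted p = 0.0218) and -1.39 with quantile normalization (0.00273). The 1 transcript in the table (ENSMUSG00000026162, chromosome 1, minus strand, 74967139 to 75046639) has 1053 bases and is tagged in GENCODE M21 as lacking its start. An estimated 55.0 to 98.2 fragments per library stand behind it, the thinnest basis among the members with a single transcript.

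The sum and the make-up of the end joining transcripts are given without a test. Summed over the 9 genes, 76.3, 65.5 and 70.5 FPKM were measured in the irradiated replicates and 147.0, 149.3 and 168.5 FPKM in the controls. Xrcc6 held 11.9% to 18.3% of that sum in irradiated and 45.5% to 49.0% in control libraries. Xrcc5 held 26.6% to 38.6% in irradiated and 6.82% to 7.22% in control libraries, and Lig4 held 2.56% to 2.62% in irradiated and 11.8% to 13.5% in control libraries. In every irradiated library Xrcc5 held the first place and in every control Xrcc6 did. Poll held 5.45% to 8.77% in irradiated libraries and 0.961% to 1.19% in controls. The shares of Prkdc, Dclre1c and Nhej1 were closer, at 8.94% to 9.38%, 10.7% to 14.0% and 2.79% to 4.19% in irradiated libraries and 5.93% to 7.60%, 8.92% to 10.3% and 1.82% to 2.53% in controls.

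**Figure D3:**
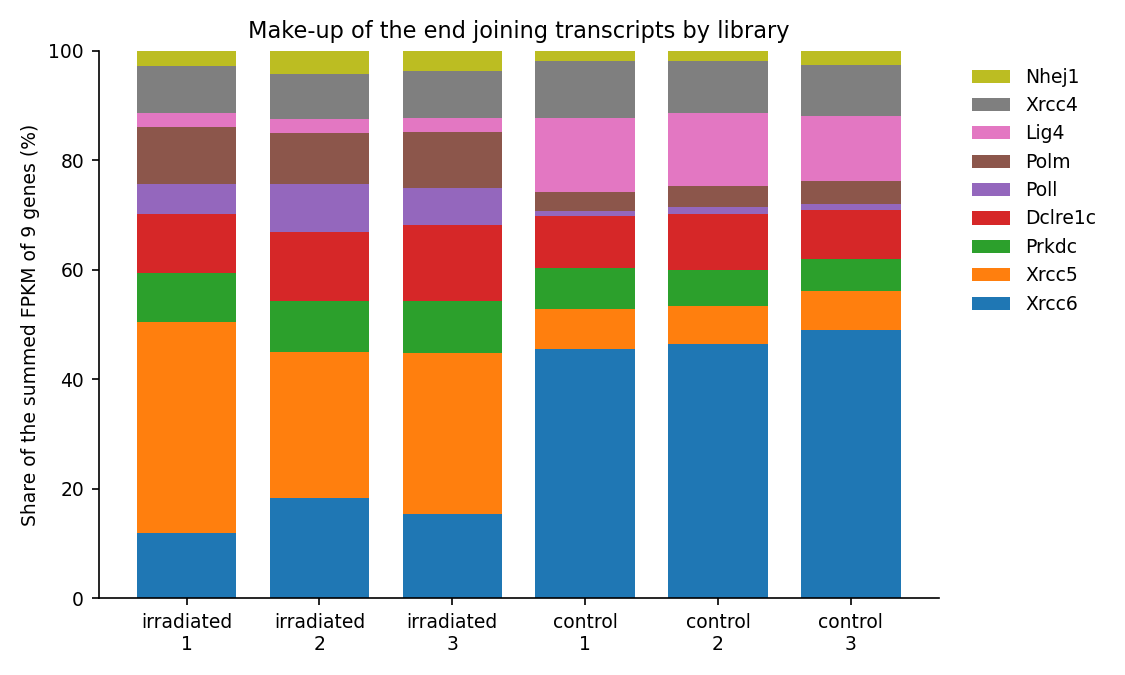
Share of each end joining gene in the summed FPKM of all 9, in percent, by library, with the irradiated replicates on the left. Xrcc5 is the widest band in the 3 irradiated libraries and Xrcc6 in the 3 controls, and the Lig4 band narrows to between 2.56% and 2.62% in irradiated libraries.

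In the authors' deposited table the same 5 genes were lower and the same 2 higher at their adjusted p under 0.05, where 14.0% of 19142 genes were lower and 32.5% higher. Log2 fold changes in the authors' deposited table were -3.50 for Xrcc6, 0.82 for Xrcc5, -0.90 for Prkdc, -1.002 for Dclre1c and 1.34 for Poll. For the ligation genes the authors' deposited table gives -3.67 for Lig4, -1.79 for Xrcc4 and -0.51 for Nhej1, with Polm at 0.35. Xrcc5 had the highest adjusted p of the 7 called there, 0.0323 in the authors' deposited table. Counted by libraries, the groups did not overlap with irradiated below in 5 of the 9 (24.7% of tested genes) and with irradiated above in 2 (46.1%).

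Across the tested genes the middle log2 fold change was 0.40 with FPKM as deposited, and relative to it Xrcc5 stood 0.61 and Poll 1.11 higher, while Prkdc, Dclre1c, Xrcc4, Xrcc6 and Lig4 stood at -1.06, -1.14, -1.73, -3.17 and -3.77. Over the 3 other scalings Xrcc5 ran from 0.63 to 0.91 and passed in each (limma adjusted p of 0.0223 to 0.0458), and Poll ran from 0.57 to 1.42.

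Several of the genes start back to back with another gene, which allows a transcript from the same stretch of DNA to be compared. Starts were the outermost ones in GENCODE M21, so the surroundings of the RefSeq start of Xrcc6 were not searched. The Lig4 and Abhd13 starts are 21 bases apart on opposite strands in GENCODE M21. Abhd13, which encodes a hydrolase-fold protein, measured 9.68, 8.65 and 9.50 FPKM in irradiated and 15.03, 14.2 and 13.2 FPKM in control libraries, a log2 fold change of -0.60 ± 0.13 (SE; adjusted p = 0.00565 by limma). Lig4 over Abhd13 was 0.205, 0.194 and 0.194 in the irradiated replicates and 1.32, 1.39 and 1.51 in the controls. The difference of that ratio was -2.77 on the log2 scale, and the groups did not overlap.

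Mcm4, a subunit of the replicative helicase, starts 466 bases from Prkdc and was lower by 1.28 on the log2 scale (limma adjusted p = 5.24e-04): 11.0, 8.54 and 11.7 FPKM in irradiated and 27.2, 24.4 and 24.3 FPKM in control libraries. Prkdc over Mcm4 was 0.563 to 0.719 in irradiated and 0.406 to 0.411 in control libraries. Gm17018, a protein-coding gene that starts 84 bases from Poll, rose to 7.05 ± 1.06 FPKM in irradiated thymus against 4.48 ± 0.189 FPKM in controls (SD, n = 3 each; log2 fold change 0.63, limma adjusted p = 0.0134). Poll over Gm17018 was 0.568 to 0.882 in irradiated and 0.316 to 0.414 in control libraries. Tmem167, whose start lies 485 bases from that of Xrcc4 with an overlap of 486 bases, was at -0.17 (limma adjusted p = 0.495), and Xrcc4 over Tmem167 was 0.720 to 1.29 in irradiated and 1.92 to 2.35 in control libraries. The 4 ratios to neighbours were added after the values were seen. None of them overlapped between the groups, each with an exact permutation p of 0.1, which was 0.1 after Benjamini-Hochberg adjustment over the 4. The 4 members were already without overlap on their own. So were 24.7% of tested genes with irradiated below and 46.1% with irradiated above. The share among other gene pairs was not counted, so the separation of these ratios shows nothing particular to the pairs.

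The windows of the ligation genes that start beside another gene are printed in the same way, since the neighbouring transcripts did not keep one ratio.
Lig4, chr8:9977631-9977930, minus strand: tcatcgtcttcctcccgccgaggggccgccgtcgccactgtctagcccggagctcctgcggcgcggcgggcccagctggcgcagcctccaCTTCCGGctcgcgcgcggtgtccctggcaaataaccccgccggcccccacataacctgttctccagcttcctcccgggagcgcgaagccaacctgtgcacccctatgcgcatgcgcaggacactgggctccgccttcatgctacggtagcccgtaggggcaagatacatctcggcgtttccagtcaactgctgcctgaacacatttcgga
Xrcc4, chr13:90089559-90089858, minus strand: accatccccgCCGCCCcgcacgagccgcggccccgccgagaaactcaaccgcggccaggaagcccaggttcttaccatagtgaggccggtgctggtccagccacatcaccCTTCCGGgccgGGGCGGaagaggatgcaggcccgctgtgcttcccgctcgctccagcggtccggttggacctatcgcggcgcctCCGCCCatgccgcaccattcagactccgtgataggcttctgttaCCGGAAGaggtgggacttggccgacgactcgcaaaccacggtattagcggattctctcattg
The Lig4 window contains the Abhd13 start and is 66.3% G and C, with 1 match to CCGGAAG. The Xrcc4 window is 65.7% G and C, with 3 matches to GGGCGG and 2 to CCGGAAG, which is found in 8.86% of all windows. RefSeq windows were matched for 7 of the 9 genes, 8 windows in all since Lig4 has a second start. CCGGAAG is in 4 of these 8: both Lig4 windows, Dclre1c and Xrcc4. The second Lig4 window, not printed, holds 1 match to CCGGAAG and 2 to GGGCGG.

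**Figure D4:**
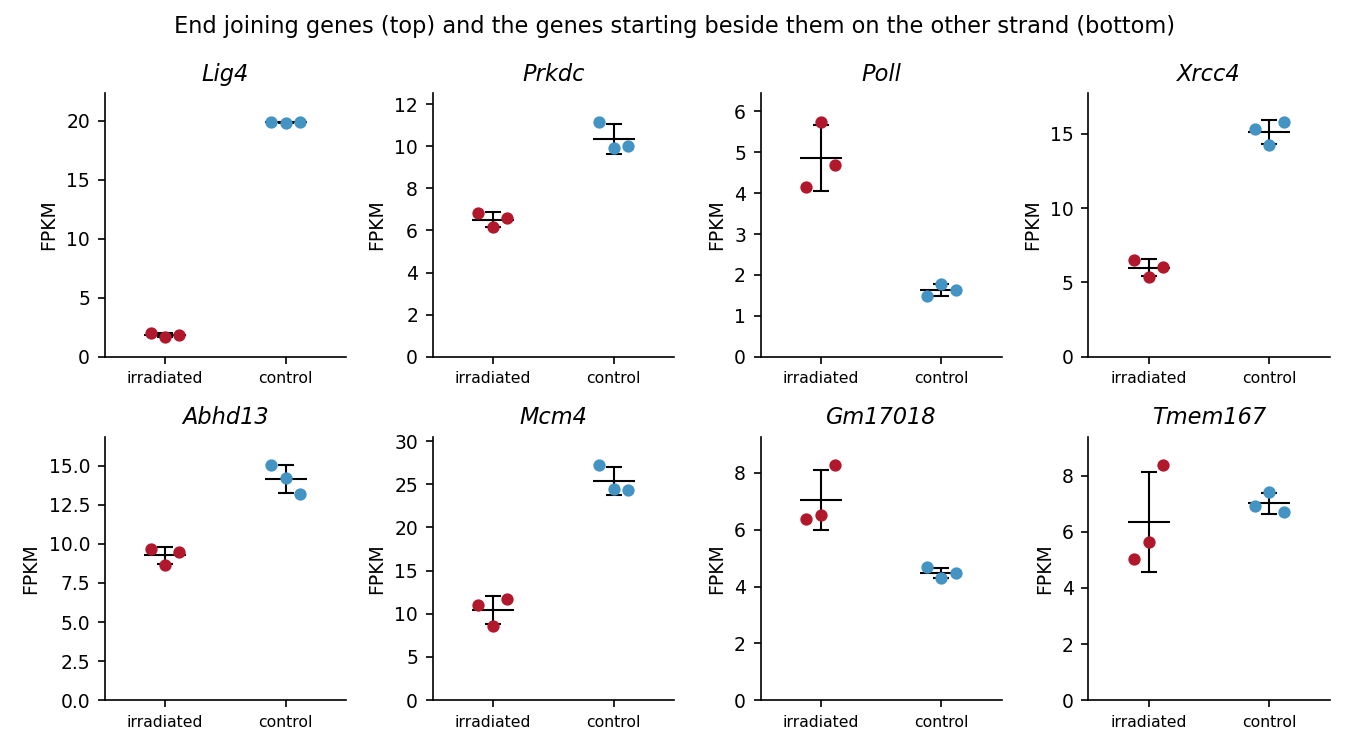
FPKM of 4 end joining genes (top row) and of the gene that starts within 1 kb of each on the other strand (bottom row), irradiated libraries on the left of each panel. Points are libraries, the dash is the mean and the whiskers 1 SD (n = 3). The Lig4 mean is 1.84 FPKM in irradiated and 19.9 FPKM in control libraries, and the Abhd13 mean is 9.28 FPKM in irradiated and 14.2 FPKM in control libraries.

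The lncRNA table lists noncoding transcripts of the same genes, mostly retained introns and processed transcripts, each with its own FPKM. It held 17 such transcripts of 6 members, and none for Xrcc5, Poll and Lig4. Over the 19247 lncRNA transcripts tested, 24.6% were lower and 8.26% higher, but that balance turned with the scaling: 1789 were lower and 2505 higher with median-ratio scaling, against 4726 and 1590 with FPKM as deposited. Leaving out 1 control gave 1806 to 2131 lower. Of the member transcripts 9 averaged at least 0.5 FPKM and were tested, 6 were called lower and 3 from Polm did not pass. Of these 6, the 4 from Xrcc6 averaged under 0.5 FPKM in irradiated libraries and met the filter only through the controls, so the count is partly fixed by the filter and supports nothing about the coding genes.

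Xrcc6 gave 4 of those 6. The retained-intron transcript ENSMUST00000166311 measured 0.421, 0.232 and 0.395 FPKM in irradiated and 6.06, 5.58 and 7.17 FPKM in control libraries, a log2 fold change of -3.85 (limma adjusted p = 4.01e-04). The retained-intron transcripts ENSMUST00000164775 and ENSMUST00000164975 were at -3.87 and -2.88. The processed transcript ENSMUST00000170630 was listed at 0, 0 and 0.259 FPKM in irradiated and at 2.88, 9.37 and 11.7 FPKM in control libraries. For each of these 4 the irradiated libraries lay below the controls, which the filter favours. One more Xrcc6 retained-intron transcript, ENSMUST00000170907, was left out by the same filter and ran the other way, at 0.156, 0.966 and 0.0373 FPKM in irradiated and 0, 0.00599 and 0.0188 FPKM in control libraries.

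The 2 others that fell were the Dclre1c retained intron ENSMUST00000131433, with 2.60, 2.80 and 3.70 FPKM in irradiated and 5.33, 5.94 and 5.62 FPKM in control libraries (log2 fold change -0.89, limma adjusted p = 0.0254), and an assembled Xrcc4 transcript of 2 exons that is not in GENCODE M21. That transcript lies at 90020324 to 90035623 on chromosome 13 within the gene. It measured 0.727, 0.559 and 0.371 FPKM in irradiated and 2.16, 1.78 and 1.98 FPKM in control libraries. Its log2 fold change was -1.70 (limma adjusted p = 0.00737), beside -1.33 for the coding gene.

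Other genes of end joining were followed through lists by role. Of 10 accessory and end-processing factors 6 fell and 1 rose, and the middle value on the log2 scale was -0.58. Over all tested genes 20.9% were lower and 42.4% higher. The number of these 10 that fell was 4 without control replicate 2 or 3. It was 7 after quantile normalization or median-ratio scaling. Tdp2, which removes trapped topoisomerase from ends, measured 9.31 ± 4.18 FPKM in irradiated and 25.5 ± 1.84 FPKM in control thymus (SD, n = 3 each), a log2 fold change of -1.52 (limma adjusted p = 0.00306). Wrn, a helicase and exonuclease gene, was at -0.64 (0.00369). Parp3, a polymerase of ADP-ribose that promotes end joining, was the 1 that rose, to 22.8 ± 9.35 FPKM in irradiated thymus against 6.84 ± 0.453 FPKM in controls, or 1.63 on the log2 scale (0.00356). Paxx, a relative of XRCC4 and XLF that binds Ku, fell by 0.98 on the log2 scale (0.00426).

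Among 12 listed genes that act in break-site chromatin around 53BP1, 5 fell and 1 rose, with a median of -0.44. Beside these counts, 20.9% of all tested genes were lower and 42.4% higher. H2afx, the histone variant that is phosphorylated at breaks, measured 21.7 ± 16.1 FPKM in irradiated and 215.0 ± 26.8 FPKM in control thymus (SD, n = 3 each; log2 fold change -3.54, limma adjusted p = 6.77e-04). Rif1 and Paxip1, which act with 53BP1 at breaks, were at -1.69 (0.00393) and -1.18 (6.70e-04). Mad2l2, part of the shieldin complex that protects ends, was the 1 called higher, at 0.76 (0.0121). That call was lost after quantile normalization and median-ratio scaling, and without control replicate 2, at adjusted p of up to 0.763. After median-ratio scaling 7 of the 12 fell, and 8 after quantile normalization. Without control replicate 2 or 3, 3 fell.

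The alternative end joining list, the back-up route that uses short matches between ends, had 6 of 10 lower and none higher, with a median of -0.52. The shares over all tested genes were 20.9% lower and 42.4% higher. Polq, its polymerase theta, measured 1.16 ± 1.09 FPKM in irradiated and 4.90 ± 1.00 FPKM in control thymus (SD, n = 3 each), a log2 fold change of -2.32 (limma adjusted p = 0.00999). Lig1 was at -1.24 (0.00356) and Parp1 at -0.55 (0.0215), and the call for Parp1 was lost when any 1 control was left out. Over the fits that left out 1 library the number that fell ran from 2, without control replicate 1, to 7, without irradiated replicate 1. It was 3 when irradiated replicate 2, control replicate 2 or control replicate 3 was dropped, and 4 when irradiated replicate 3 was. With all libraries, 7 fell after quantile normalization or median-ratio scaling. All 5 listed partners in V(D)J recombination fell. Rag1, Rag2 and Dntt were at -8.56, -7.30 and -6.18, beyond any end joining member. These genes are also among the cortical thymocyte markers above, so their falls repeat that result. Rag2 averaged 0.290 FPKM in irradiated and 48.7 FPKM in control libraries. It met the filter of 0.5 FPKM only through the controls, which favours a fall. Its log2 fold change ran from -8.28 to -5.29 over the alternatives. The DNA-bending genes Hmgb1 and Hmgb2 were at -2.21 and -3.38. Hmgb1 has near-identical copies in the genome, so its value is uncertain.

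**Figure D5:**
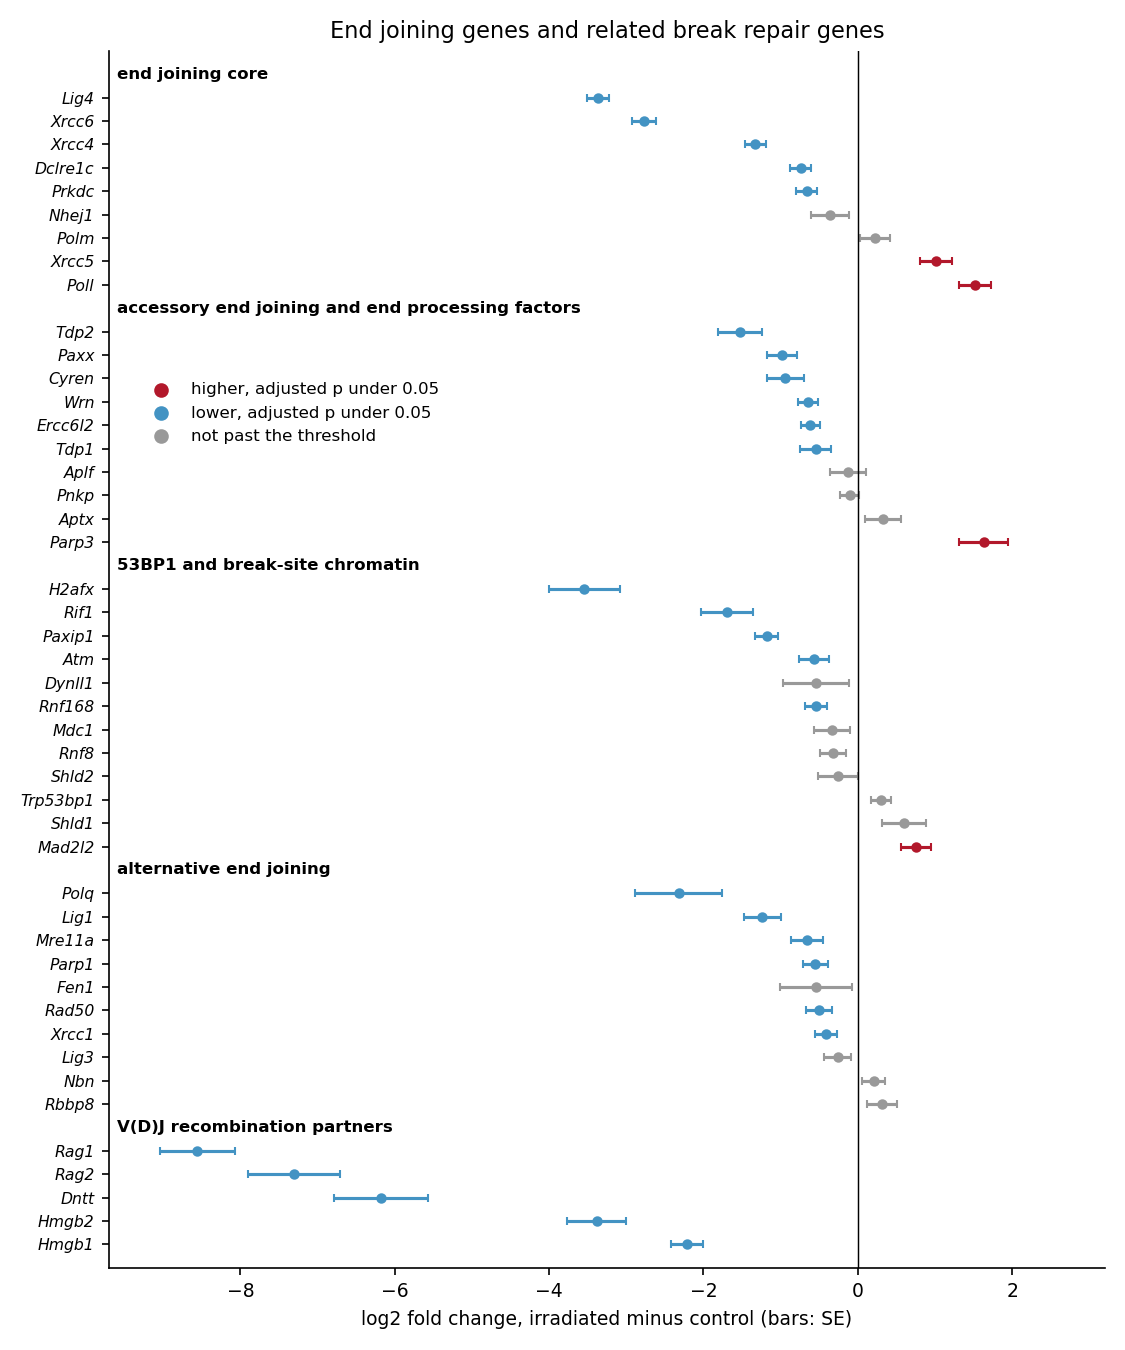
Log2 fold change, irradiated minus control, with its SE, for the end joining genes and 4 lists of related genes. Red points were called higher, blue points lower and grey points did not pass (limma adjusted p, 3 libraries per group). Rag1 at -8.56 and Parp3 at 1.63 are the outermost points.

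The closest relatives of the members by protein family did not share one change. Among DNA ligases, Lig4 was at -3.37, Lig1, the replicative ligase, at -1.24 and Lig3, the mitochondrial and single-strand break ligase, at -0.26 (limma adjusted p = 0.213). Among family X polymerases, Dntt was at -6.18, Polb, the base excision repair polymerase, at -0.48 (0.0289), Polm at 0.23 and Poll at 1.52. Among the nucleases of the Artemis family, Dclre1c was at -0.74, Dclre1b, a telomere factor, at -0.32 (0.166) and Dclre1a, a cross-link repair gene, at 1.71 (0.00350, but 0.264 after quantile normalization). Of the kinases related to DNA-PKcs, Smg1 of RNA decay was at -1.15, Atr at -0.65 and Atm at -0.57, near the -0.66 of Prkdc, and Mtor at 0.46 did not pass (0.0550). Of the 11 relatives listed, 7 fell and 1 rose, where 20.9% of all tested genes were lower and 42.4% higher. Lig1, Atm and Dntt, which fell, were also counted in the lists above, so these counts repeat in part. Leaving out irradiated replicate 2 or control replicate 1 left 4 that fell. The call for Atm was lost in 7 of 15 alternatives and those for Atr and Polb in 4 each.

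The genes nearest to each member in profile were found by the distance between log2(FPKM + 0.1), centred on the control mean, over the 6 libraries. These are descriptions of 6 values that differ mainly by group. For Lig4 they were Mns1, E2f2 and Glcci1, at distances of 0.437, 0.504 and 0.518 on the log2 scale, with log2 fold changes of -3.45, -3.56 and -3.66. For Xrcc6 they were Mad1l1, Ly6d and Thy1, the last a surface marker of thymocytes, at 0.455, 0.461 and 0.471. For Xrcc4 they were Ctcf, Sp4 and Hjurp at 0.168, 0.218 and 0.220. Prkdc was closest to Taf2 (0.0888), Rbm15 (0.114) and Dnttip2 (0.119), and Dclre1c to Hnrnpc (0.0913), Entr1 (0.0928) and Nsmce1 (0.111). Xrcc5 was closest to Acer3 (0.146), Rnf130 (0.166) and Xxylt1 (0.194), and Poll to Dock9 (0.137), Cst3 (0.172) and Pik3r2 (0.212). Polm lay nearest to Stk10, Maml2 and Parn, and Nhej1 to Gm49322, Trim56 and Arid1b.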

How the data were processed

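RNA came from whole thymus of 3 irradiated and 3 control mice. Libraries of polyadenylated RNA were prepared with NEBNext reagents, per the labels. The deposited tables give FPKM computed by the authors, 1 value per gene for mRNA and 1 per transcript for lncRNA, and the authors' log2 fold changes and p-values. DESeq2 1.10.1 is named in the submitters' processing notes. Aligner, counter, strand setting and annotation: not given in the sources used here. Start and end matched GENCODE M21 (GRCm38) for 99.81% of shared mRNA and 99.91% of shared lncRNA identifiers. From the lncRNA file 62 lines without values were dropped.

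Depth was estimated from the most frequent low value of FPKM times kilobases among genes with 1 transcript, taken as the step of 1 fragment. It came to 24400000 to 25600000 fragments in irradiated and 21900000 to 23200000 in control libraries. Fragment numbers given for members are such estimates and are uncertain. Only 35.1% to 44.1% of the low values in a library lay within 0.05 of a whole step.

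Genes averaging at least 0.5 FPKM were tested on log2(FPKM + 0.1), which understates the change of low genes. The fit used limma 3.58.1 in R 4.3.3, a group-only model, empirical Bayes with an abundance trend and Benjamini-Hochberg adjustment over each whole table, at a threshold of 0.05. All 9 members passed that filter. The code was tested on simulated data. Ratios within libraries were compared by exact permutation, two-sided; adjusted over the 3 partner ratios, each p was 0.1. Named genes are the members, the 3 with the smallest adjusted p in each pathway list, all family relatives, genes starting within 1 kb on the other strand and the 3 nearest in profile. Other list genes were named after their values were seen. Members and lists were chosen with earlier results of these data known. Alternatives covered pseudocounts, filters, 3 scalings, no trend, a replicate block and leaving out each library. Sequence windows come from RefSeq on GRCm38.p6.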

Additional observations from a re-analysis of the deposited data

How the results depend on the processing

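Of 135 refits of single member genes, 130 kept their direction and their side of the threshold. The exceptions were Poll, which did not pass after quantile normalization (log2 fold change 0.57), Nhej1, which passed as lower after quantile normalization (-1.39) and median-ratio scaling (-0.73), and Polm, which was -0.28 and -0.15 under those settings and passed under none. With quantile normalization 1 member was higher, against 2, and 3501 mRNA genes were higher and 4403 lower, against 5933 and 2920. Median-ratio scaling gave 4558 lower genes. The cause was not tested. The lncRNA table, with 4726 transcripts lower and 1590 higher, gave 1789 and 2505 with median-ratio scaling, 2041 and 2208 with quantile normalization, and 1806 to 2131 lower without 1 control. Without irradiated replicate 2 or 3 it gave 2788 and 2660 lower. The count of member noncoding transcripts called was 5 or 6 in each alternative run, no partner ratio changed sign, and the count of members lower stayed within 1.5 times. Xrcc6 over Xrcc5 ran from -4.04 to -3.46 on the log2 scale when 1 library was left out. Fragments could be estimated for the 4 members with 1 transcript, and among these Nhej1 had the fewest, 55.0 to 98.2. The other 5 were not compared.

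Same-numbered irradiated and control libraries did not deviate together (r of -0.0433 to 0.0596 over genes), so the numbers were not taken as pairs. With a replicate block 5693 genes were higher and 2662 lower, 2 members were higher and 5 lower, and the Xrcc6 to Xrcc5 ratio stayed at -3.78 (exact paired p = 0.25, the smallest 3 pairs allow).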
